A study of Mus musculus with 6 samples.

Results

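H3K27ac ChIP-seq was compared directly between Bmal1 knockout (Bmal1KO) and Mfp2 knockout (Mfp2KO) RAW264.7 cells, an established mouse macrophage-like cell line. The members are the genomic regions in which either knockout had a called peak on chromosomes 1 to 19: overlapping peaks of the 2 lists (at least 1 bp) were merged into 32222 regions. These come from the 25190 Bmal1KO and 23983 Mfp2KO peaks on those chromosomes, out of 79419 peaks in the 3 lists of the series. The series holds 1 ChIP library and 1 input library each of wild-type, Bmal1KO and Mfp2KO cells. All cells were grown in DMEM with 5% serum and fixed with 1% formaldehyde for 10 min, NEBNext Ultra II was the library kit, and the antibody was Abcam ab4729. The labels name no stimulus, and they do not say whether a knockout line is 1 clone or a pool. With 1 library a genotype there is no replicate check, so no difference below has a test. Intervals of a tag ratio cover counting error only. Those of shares and of the median ratio are taken over regions, which are not replicates.

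H3K27ac is an acetyl mark placed on histone H3 by p300 and CBP, and it marks active promoters and active enhancers. Macrophages carry it at the enhancers bound by their lineage factors, and strongly active loci hold broad runs of it. BMAL1 is the transcription factor that pairs with CLOCK at E-boxes to drive the circadian clock. MFP2, the product of Hsd17b4, is a peroxisomal enzyme that carries out the hydration and dehydrogenation steps in the β-oxidation of very-long-chain and branched-chain fatty acids. The title of the series links the proteins, with BMAL1 acting on macrophage inflammation through entry of MFP2 into the nucleus. The comparison shows where the H3K27ac profiles of cells lacking one or the other protein differed.

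The libraries differed before any region was compared. The ChIP depth was 12.5 M tags in Bmal1KO and 15.8 M in Mfp2KO, and tags per region are given after the authors' scaling to 10 M tags. Per the file headers, 37.35% of the Bmal1KO tags and 57.15% of the Mfp2KO tags lay in peaks, against 38.71% in wild type. The called length was close to equal, at 44.8 Mb in Bmal1KO and 44.4 Mb in Mfp2KO, with median peaks of 1421 and 1615 bp. Input tags per kb of shared region, on a scale derived from the deposited fold over input, were 1.49 times higher in Mfp2KO. Regions are given by their coordinates in build mm39, as deposited. The genes at them, the knocked-out loci and the markers of macrophages were not analysed here.

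Both knockouts had a peak in 15724 regions, or 48.8% of the 32222. A further 8761 regions (27.2%) were called in Bmal1KO only and 7737 (24.0%) in Mfp2KO only. Seen from each list, 35.8% of the 24485 regions with a Bmal1KO peak (95% Wilson interval 35.2 to 36.4) and 33.0% of the 23461 regions with a Mfp2KO peak (32.4 to 33.6) lacked a peak in the other knockout. These regions held little of the signal. The Bmal1KO-only regions carried 3.91% of the Bmal1KO tags in peaks and the Mfp2KO-only regions 3.98% of the Mfp2KO tags, on 14.6% and 15.0% of the called length. The remaining 96.1% of the Bmal1KO and 96.0% of the Mfp2KO tags in peaks lay in shared regions.

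Regions called in 1 knockout only were short and weak. Bmal1KO-only regions had a median of 10.4 tags on 500 bp (17.6 tags per kb, 6.17-fold over input), and Mfp2KO-only regions had 13.6 tags on 637 bp (20.4 tags per kb, 5.69-fold). The length of 500 bp is the smallest window of the peak caller. In shared regions the medians were 119 tags on 2282 bp in Bmal1KO (46.0 tags per kb, 9.38-fold) and 222 tags on 2146 bp in Mfp2KO (94.8 tags per kb, 10.98-fold). Many of the unshared regions lay close to the caller's limit of 4-fold over input: 45.9% of the Bmal1KO-only and 54.5% of the Mfp2KO-only regions were under 6-fold, against 22.9% and 16.2% of the shared regions in the same lists.

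The share called in 1 knockout only fell steeply with tags. In the lowest decile of Bmal1KO regions, with a median of 7.58 tags, 89.9% had no Mfp2KO peak, and in the highest decile 2 of 2449 had none (0.0817%). For Mfp2KO the share was 78.4% in the lowest decile and 2 of 2346 (0.0853%) in the highest. The lists parted in the middle: at a median near 100 tags, 5.43% of the Bmal1KO regions (seventh decile, 98.9 tags) and 19.6% of the Mfp2KO regions (sixth decile, 99.8 tags) were called in that knockout only. The strong unshared regions were accordingly more often Mfp2KO regions. At least 100 tags were found in 79 Bmal1KO-only and 394 Mfp2KO-only regions, and at least 200 tags in 15 and 104. The scaled tags of Mfp2KO are higher at most shared regions too, as given below, and the part of that offset in these counts was not tested.

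**Figure D1:**
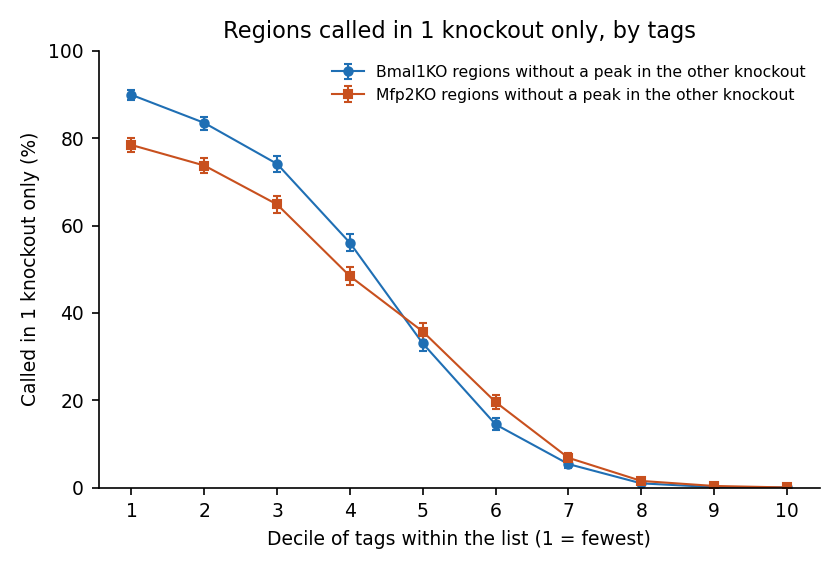
Share of regions with a peak in 1 knockout only (y axis, percent, with 95% Wilson intervals) in each decile of tags within the Bmal1KO list and within the Mfp2KO list (x axis). Both curves fall from 89.9% and 78.4% in the lowest decile to under 0.1% in the highest.

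Unshared regions varied in how near they stood to a peak of the other knockout. The same distances were not taken for shared regions, so these values have no background. The nearest Mfp2KO peak lay a median of 8420 bp from a Bmal1KO-only region, and the nearest Bmal1KO peak 6081 bp from a Mfp2KO-only region. Within 1 kb were 13.98% of the Bmal1KO-only and 15.2% of the Mfp2KO-only regions, and within 10 kb 53.7% and 62.1%. The stronger ones were not closer. With at least 100 tags, 7 of 79 Bmal1KO-only and 36 of 394 Mfp2KO-only regions lay within 1 kb, and the median distances were 11596 and 7989.5 bp.

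The most Bmal1KO tags in an unshared region, 3275 on 1252 bp at 4.51-fold over input, coincided with 580.2 input tags per kb, and this region is not among those described. The 12 strongest that are described held 205 to 628 tags on 1852 to 5339 bp. The first of them, chr11:101916542-101921881, held 628 Bmal1KO tags (118 tags per kb, 13.4-fold over input). Wild type had 287.5 tags in 2 peaks there, and no Mfp2KO peak lay within 40115 bp. The second, chr1:91383435-91388226, held 409 Bmal1KO tags and 114 in wild type, with no Mfp2KO peak within 38699 bp. At both, the wild-type value was lower than the Bmal1KO value but a peak was called. Wild type and Bmal1KO were almost level at chr15:64252869-64255834, with 299 and 305 tags, and at chr13:51946312-51948514, with 262 and 273 tags, where the nearest Mfp2KO peaks were 37848 and 48104 bp away. The region chr6:127125497-127128620 held 298 Bmal1KO tags (10.1-fold over input) and had no peak in Mfp2KO or wild type within 38049 bp. The most isolated from Mfp2KO was chr10:61900020-61903392, with 219.8 Bmal1KO tags, 6.97 wild-type tags on 500 bp and the nearest Mfp2KO peak 214690 bp away. In this set, 9 of 12 regions had a wild-type peak. At chr7:144656166-144661366, 206.6 Bmal1KO tags ended 518 bp from a Mfp2KO peak. The region was overlapped by 1 wild-type peak of 12651 bp, longer than the region, which held 731.7 tags.

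The 12 strongest regions called in Mfp2KO only, after 2 with high input (507 and 426.5 tags) were passed over, held 424 to 729.7 tags on 1890 to 7243 bp. Each was above all but the first of the 12 Bmal1KO-only regions just described. The first, chr4:140307363-140314606, held 729.7 Mfp2KO tags (101 tags per kb, 12.2-fold over input), against 187 in 2 wild-type peaks. A Bmal1KO peak lay 6620 bp away. At chr11:119988557-119991874 there were 685 Mfp2KO tags at 21.2-fold over input, and neither Bmal1KO nor wild type had a peak within 10085 bp. Regions far from any Bmal1KO peak were chr3:126389402-126392223, with 653 Mfp2KO and 137 wild-type tags (nearest Bmal1KO peak 953328 bp away), and chr12:29987456-29990020, with 585.5 and 109.9 tags (642888 bp). Wild type was close to Mfp2KO at 1 of the 12: chr10:31483713-31486493 held 481 Mfp2KO and 505 wild-type tags, and it stood 292989 bp from the closest Bmal1KO peak. The highest fold over input was at chr2:181138231-181140197, with 28.5-fold, 467 Mfp2KO tags and 65.5 wild-type tags. At chr11:100513164-100519492, 575 Mfp2KO tags ended 431 bp from a Bmal1KO peak, as at the chromosome 7 region called in Bmal1KO only, and wild type held 182 tags there. Wild type had a peak at 10 of the 12, in 9 of them with fewer tags than Mfp2KO. Input tags per kb were 7.99 to 27.9 in Mfp2KO at these 12, above the list's median of 5.66, and 5.51 to 13.8 at the 12 Bmal1KO-only regions, above a median of 4.33 in Bmal1KO. The part of input in these calls was not tested.

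**Figure D2:**
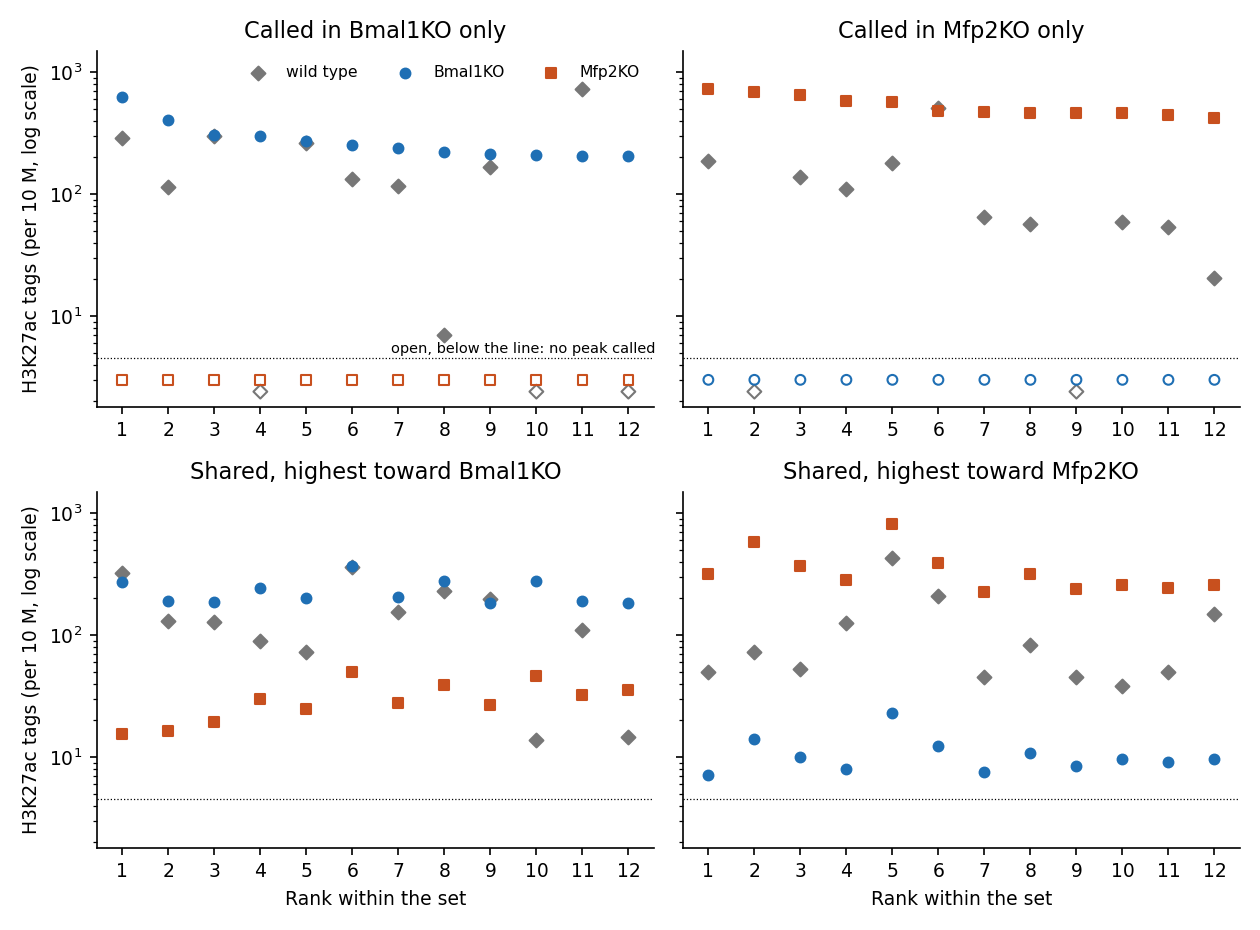
H3K27ac tags per 10 M (y axis, log scale) in wild type, Bmal1KO and Mfp2KO at the 12 regions of each of 4 sets, by rank (x axis). Open symbols below the dotted line have no called peak. Wild type lies between the knockouts at all 12 shared regions highest toward Mfp2KO and at 8 of the 12 highest toward Bmal1KO.

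In shared regions Mfp2KO held more tags. Before any centring, 11679 of the 15724 were higher in Mfp2KO and 4034 in Bmal1KO, and the median ratio of Mfp2KO over Bmal1KO was 1.39 (log2 0.47, interval 0.46 to 0.49 over regions). Per kb called it was 1.43. The share of tags in peaks differs between the libraries in the same direction, and a library-wide shift in enrichment cannot be told apart from a change at most regions. Ratios are therefore given as log2 of Mfp2KO over Bmal1KO relative to the median shared region, on which scale equal tags stand at -0.47. Around the median, the middle 50% of the shared regions lay between -0.49 and 0.62 and the middle 90% between -1.73 and 1.99.

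**Figure D3:**
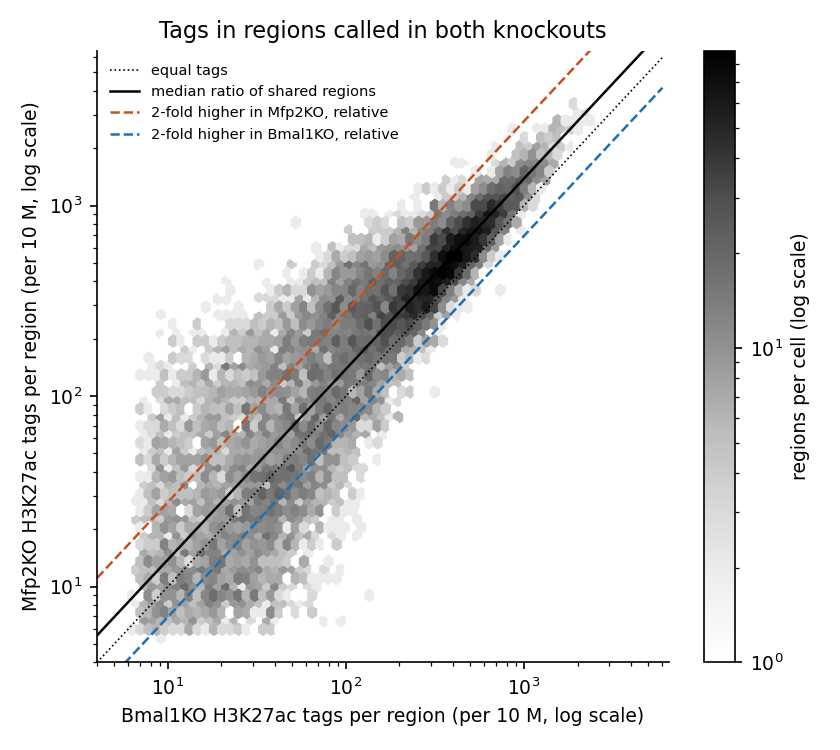
Tags per 10 M in Bmal1KO (x axis, log scale) and Mfp2KO (y axis, log scale) for the 15724 shared regions, shaded by the number of regions in each cell. The solid line is the median ratio of 1.39, the dashed lines are 2-fold from it, and the cloud narrows toward the strongest regions.

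Among the 15464 shared regions with at least 20 tags in both lists together, 2689 (17.4%) were more than 2-fold higher in Mfp2KO than the median region and 1996 (12.9%) more than 2-fold higher in Bmal1KO. These thresholds correspond to 2.77-fold more tags in Mfp2KO and 1.44-fold more in Bmal1KO before centring. The counting interval lay wholly past 2-fold in 1715 and 886 of them. Without centring, 4328 were higher in Mfp2KO and 1159 in Bmal1KO, so that 78.9% of those past 2-fold were higher in Mfp2KO in place of 57.4%. Nearest to the threshold, a region with 180.7 Bmal1KO and 501 Mfp2KO tags was inside it and one with 139.6 and 387 tags outside. On the other side, a region with 12.8 and 8.87 tags was inside and one with 37.5 and 26 tags outside.

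Calls in each direction were most frequent in different ranges of signal. In the lowest decile of summed tags the median relative log2 ratio was -0.72, and 40.0% of the regions with at least 20 tags were past 2-fold toward Bmal1KO against 5.10% toward Mfp2KO. The order turned between the third and the fourth decile. In the fifth, with medians of 96.1 Bmal1KO and 177 Mfp2KO tags, the median was 0.38, and 32.8% were past 2-fold toward Mfp2KO against 8.65% toward Bmal1KO. In the highest decile, with medians of 729.6 and 1063 tags, the median was 0.06 and the standard deviation 0.41, and 57 regions were past 2-fold toward Mfp2KO against 1 toward Bmal1KO. Regions of at least 200 tags numbered 9621, of which 1560 (16.2%) were past 2-fold toward Mfp2KO and 228 (2.37%) toward Bmal1KO. With a minimum of 100 tags, 77.9% of the regions past 2-fold were higher in Mfp2KO. Regions with relatively more tags in Bmal1KO were mainly weak ones, on a scale where equal tags already count as lower in Mfp2KO. A shared region also needs a call in both lists, each with its own tag minimum. Before centring, a call took 2.77-fold more tags toward Mfp2KO but 1.44-fold toward Bmal1KO. The weakest regions could therefore pass more easily toward Bmal1KO, and the part of this in the low deciles was not tested.

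**Figure D4:**
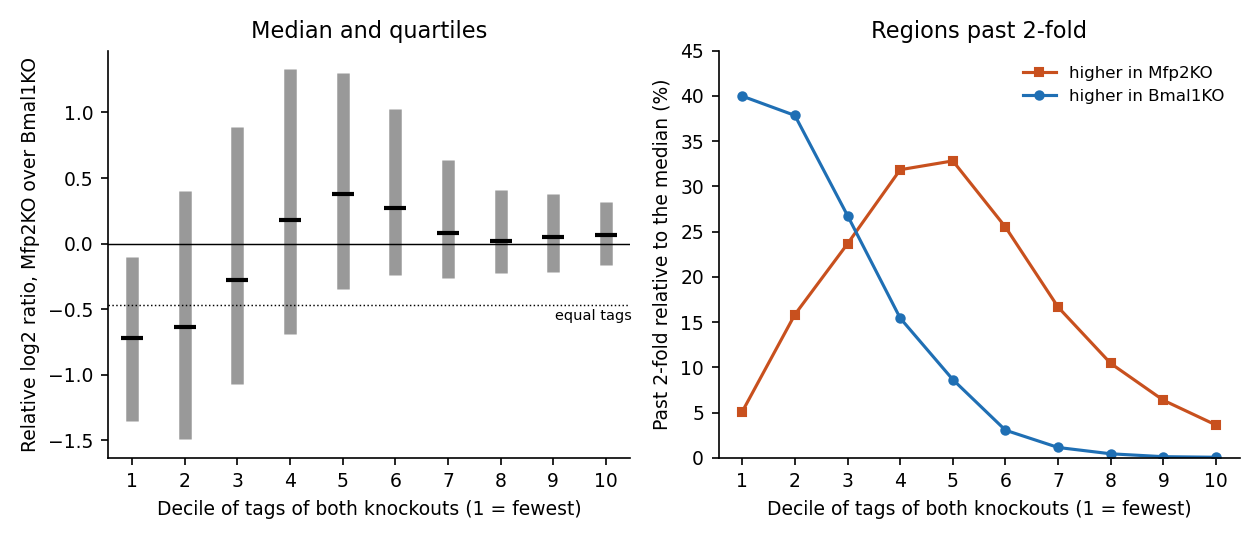
Shared regions by decile of summed tags (x axis). The left panel gives the median (bar) and quartiles (grey) of the relative log2 ratio, with a dotted line at equal tags, and the right panel the percent past 2-fold in each direction, which crosses between the third and the fourth decile.

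The 2689 shared regions past 2-fold toward Mfp2KO had medians of 41.1 Bmal1KO tags on 1349 bp and 205 Mfp2KO tags on 2148 bp. Per kb that was 30.2 against 89.8 tags, and the fold over input was 6 against 12.2. Bmal1KO had called under 50% of the Mfp2KO length in 984 of them (36.6%), against 1217 of all 15464 regions of at least 20 tags. It had called exactly 500 bp in 419 of the 2689. The difference in tags therefore came with a difference in called length, and a short call by itself lowers the summed tags. By tags per kb, 1316 of the 2689 (48.9%) were past 2-fold in the same direction.

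At the extremes toward Mfp2KO, Bmal1KO had little more than the smallest callable window. In the 12 regions of at least 200 tags with the highest ratios, Bmal1KO held 7.18 to 23.1 tags and Mfp2KO 227 to 811. The relative log2 ratios were 4.27 to 4.99, and the Bmal1KO call was 500 bp in 11. These ratios and their intervals count Bmal1KO signal outside its call as none. Per kb called, Bmal1KO held 14.4 to 33.9 tags and Mfp2KO 54.9 to 283 in these 12. The highest ratio was at chr1:74322737-74325144, with 7.18 Bmal1KO tags on 500 bp, 49.4 wild-type tags and 315 Mfp2KO tags on 2407 bp (relative log2 4.99, interval 4.05 to 6.12). At chr17:41190277-41192314 the values were 14 Bmal1KO, 72.8 wild-type and 576 Mfp2KO tags, and the Mfp2KO fold over input of 32.8 was the highest of the set. The region chr6:94259281-94262413 held most tags of the 12, with 23.1 in Bmal1KO, 427 in wild type and 811 in Mfp2KO (4.66, interval 4.13 to 5.25). By tags, wild type lay between the knockouts in all 12. Nearness was judged by log2 tags over wild type, centred for each knockout on its own median. On that scale wild type was nearer Mfp2KO in 9 and nearer Bmal1KO in 3.

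The 1996 shared regions past 2-fold toward Bmal1KO were weaker in both lists. Their medians were 46.3 Bmal1KO tags on 1852 bp and 18.4 Mfp2KO tags on 880.5 bp, or 24.9 against 19.2 tags per kb. The Mfp2KO call covered under 50% of the Bmal1KO length in 798 (40.0%), against 880 of all 15464 regions of at least 20 tags. It was 500 bp in 475 of the 1996. By tags per kb, 647 (32.4%) were past 2-fold in the same direction. A smaller part of these calls than of those toward Mfp2KO was therefore seen in the density of tags as well as in the summed count.

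The 12 regions of at least 200 tags with the lowest ratios held 183 to 372 Bmal1KO tags and 15.5 to 49.4 Mfp2KO tags, with relative log2 ratios of -4.59 to -2.82. Mfp2KO signal outside its own call counts as none in them. At chr17:45045146-45048094 there were 270.1 Bmal1KO tags on 2948 bp, 324 wild-type tags and 15.5 Mfp2KO tags on 500 bp (-4.59, interval -5.29 to -4.03). At chr11:87988950-87992416, with the most Bmal1KO tags of the set, the values were 372 in Bmal1KO, 359 in wild type and 49.4 in Mfp2KO (-3.38, interval -3.75 to -3.03). At both, wild type stood with Bmal1KO. The region chr15:78312026-78314500 combined a smaller difference in length, 2319 against 1232 bp, with a large one in tags, 200.6 in Bmal1KO against 24.7 in Mfp2KO, and held 73.1 wild-type tags. On the scale centred for each knockout, wild type was nearer Bmal1KO in 10 of the 12. The 2 exceptions were chr12:112878265-112882932, with 278 Bmal1KO, 46.6 Mfp2KO and 13.9 wild-type tags, and chr4:130066758-130072040, with 183, 35.8 and 14.6 tags. At the first, the called lengths were 4667, 754 and 500 bp, and tags per kb were close, at 59.5 in Bmal1KO and 61.8 in Mfp2KO. At the second, the lengths were 5282, 2013 and 633 bp, with 34.6 and 17.8 tags per kb in the knockouts.

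The strongest shared regions differed least. The 12 with most tags held 1984 to 3412 Bmal1KO tags and 3042 to 5717 Mfp2KO tags, and their relative log2 ratios ran from -0.16 to 0.91. The first, chr17:34336328-34345227, held 3412 Bmal1KO, 5229 Mfp2KO and 2010 wild-type tags (0.14, interval 0.09 to 0.20). The largest difference was at chr5:142799467-142810544, with 2198 Bmal1KO and 5717 Mfp2KO tags on called lengths of 11077 and 10618 bp and 2196 in wild type (0.91, interval 0.85 to 0.97). Here wild type stood with Bmal1KO. At chr5:32289381-32297274, with 2511 and 3110 tags, the ratio was lowest (-0.16, interval -0.23 to -0.10). None of the 12 was past 2-fold. Wild-type tags ran from 1477 to 2585, below every Mfp2KO value of the set. With each knockout over wild type centred on its own median, wild type was nearer Bmal1KO in 6 and nearer Mfp2KO in 6.

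The number of peaks and their lengths were largely matched in shared regions. Each knockout had exactly 1 peak in 14644 of them (93.1%), while 593 had more Bmal1KO and 421 more Mfp2KO peaks. More length was called in Bmal1KO in 8936 regions (56.8%) and in Mfp2KO in 6599 (42.0%), with 189 equal, and the sums were 38.3 and 37.7 Mb. So Mfp2KO held more tags on slightly less length. By quintile of length, Bmal1KO had the longer call in 46.1% of the shortest regions and 67.3% of those in the fourth of 5 quintiles. In the latter the medians were 2870 bp and 111 tags per kb in Bmal1KO against 2622 bp and 181 tags per kb in Mfp2KO.

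Regions less than 10 kb apart were joined to look at broader loci, by a rule set once the region values were known. A region called in 1 knockout only adds no tags to the sum of the other. Cluster ratios and their intervals thus count uncalled signal as none, and are centred on the median shared region. Of 865 clusters with at least 5 regions and 500 tags, 77 (8.90%) were past 2-fold toward Mfp2KO and 21 (2.43%) toward Bmal1KO, and the median relative log2 ratio was 0.21. The furthest toward Mfp2KO was a cluster of 6 regions at chr4:140280179-140314606, with 68.3 Bmal1KO tags on 2.73 kb and 1391 Mfp2KO tags on 16.5 kb (relative log2 3.88, interval 3.56 to 4.20). Wild type held 303 tags on 8.35 kb, between the knockouts. Of its 6 regions, 3 were called in Mfp2KO only and 1 in Bmal1KO only. The cluster contains the strongest Mfp2KO-only region and 1 of the 12 shared regions with the highest ratios. The clusters at chr17:47811795-47837933 (93.3 against 815 tags, 176 in wild type) and chr2:167411605-167432276 (93.0 against 758 tags, 100 in wild type) went the same way, as did those at chr9:110700701-110722772 (56.3 against 509 tags, 191 in wild type) and chr7:132274989-132338601 (65.9 against 586 tags, 370 in wild type). Before centring, Mfp2KO had at these 5 clusters 2.20 to 6.05 times the called length and 1.70 to 3.71 times the tags per kb of Bmal1KO. The median shared region was 1.43 times higher per kb in Mfp2KO. The uncentred fold was the larger for length in all but the chromosome 2 cluster.

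Clusters toward Bmal1KO also differed in called length. At chr11:87980600-88010078, furthest in that direction, Bmal1KO held 560.1 tags on 10.3 kb, Mfp2KO 137 tags on 3.82 kb and wild type 681 tags on 15.3 kb (-2.50, interval -2.73 to -2.28). At chr12:17473374-17521423, 9 of 12 regions were called in Bmal1KO only, and 427 tags on 14.9 kb stood against 105 on 3.65 kb, at 28.6 tags per kb in both. At chr1:166610714-166648259 the values were 756 tags on 24.4 kb in Bmal1KO, 249.9 on 9.54 kb in Mfp2KO and 1138 on 28.1 kb in wild type. At the 5 clusters furthest toward Bmal1KO, that knockout had 2.56 to 4.09 times the called length and 1.00 to 1.52 times the tags per kb of Mfp2KO, before centring.

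Unshared regions also occurred in runs with no peak of the other knockout between them. There were 85 runs of at least 5 Bmal1KO-only regions, among 6031 Bmal1KO-only runs of any length, and 32 among 5665 for Mfp2KO. Bmal1KO-only regions were also the more numerous, at 8761 against 7737, and the part of this in the counts was not tested. The longest Bmal1KO runs had 12 regions, at chr13:32589297-32714639 (229 tags over 125 kb, 9 regions with a wild-type peak) and chr16:24484615-24731614 (216 tags over 247 kb, 10 with a wild-type peak). The longest Mfp2KO run had 10 regions and lay at chr2:174982793-177539732 (624 tags over 2557 kb, 4 with a wild-type peak). Of these 3 runs, the Bmal1KO ones were the denser, and most of their regions were called in wild type too. Shorter runs varied. The Mfp2KO-only run of 8 regions at chr2:166363490-166489097 held 509 tags over 126 kb, with a wild-type peak at 2. Bmal1KO-only runs of 8 regions at chr9:122278491-122447870 and chr6:140610402-140761528 held 272 tags over 169 kb and 215 over 151 kb. Wild type had a peak at 6 and at 3 of their regions. Neighbouring shared regions up to 10 kb apart had weakly related ratios (Pearson r 0.17 across 3955 pairs), and those over 300 kb apart had a coefficient of -0.02 (1411 pairs). All pairs come from the same 2 libraries, and neighbours can share 1 broad domain.

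No stretch of 5 Mb stood past 2-fold as a whole. In 296 windows of 5 Mb with at least 20 shared regions, the median relative log2 ratio ran from -0.40 at the 5th to 0.33 at the 95th percentile, and none was past 1 or below -1. The lowest was on chromosome 5 from 95 to 100 Mb, with -0.83 over 21 shared regions and a median of 91.0 summed tags. The highest was on chromosome 12 from 85 to 90 Mb, with 0.60 over 51 shared regions and a median of 206 tags. Chromosome medians ran from -0.15 on chromosome 16 to 0.15 on chromosome 17, and the share called in Bmal1KO only from 23.9% on chromosome 8 to 32.2% on chromosome 18. Across the 296 windows the ratio fell as the input of Mfp2KO rose over that of Bmal1KO (Pearson r -0.37, Spearman rho -0.43) and was higher where regions had more tags (r 0.43, rho 0.43). These are descriptions over windows that share the same libraries. The part of input and of signal level in the window values was not tested.

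**Figure D5:**
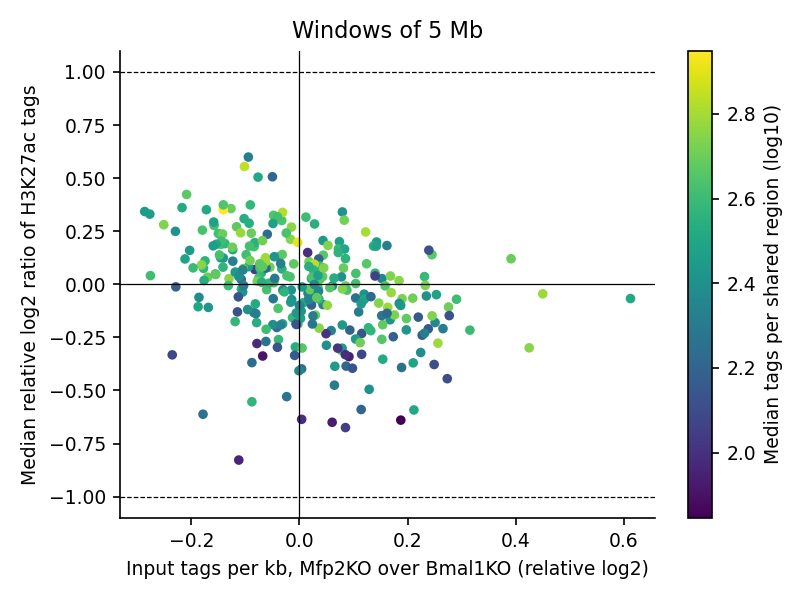
Median relative log2 ratio of H3K27ac tags in shared regions (y axis) against the relative log2 ratio of input tags per kb (x axis) in 296 windows of 5 Mb, coloured by median tags per region. No window reaches the dashed lines at 2-fold, and windows with few tags lie lower.

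Wild type was used to ask which knockout a region resembled. Of the regions called in Bmal1KO only, 3791 of 8761 (43.3%, Wilson interval 42.2 to 44.3) overlapped a wild-type peak, as did 2513 of 7737 called in Mfp2KO only (32.5%, 31.4 to 33.5). Among those of at least 100 tags the shares were 64 of 79 (81.0%) and 288 of 394 (73.1%). All of these were below the share in shared regions of at least 20 tags, 14746 of 15464 (95.4%). In both lists, most unshared regions lacked a wild-type peak, and most of the strong ones had one. With peaks of at least 6-fold over input only, the order turned, to 56.7% of the Bmal1KO-only and 60.8% of the Mfp2KO-only regions. That cut left 6069 and 5920 such regions. They include regions shared above, where the peak of the other knockout was under 6-fold. The part of this change of regions in the turn was not tested.

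In the 14923 regions called in all 3 lists, each knockout was set over wild type and centred on its own median. Bmal1KO was the nearer to wild type in 9349 (62.6%, interval 61.9 to 63.4), and the median distance was 0.64 on the log2 scale for Bmal1KO and 0.89 for Mfp2KO. The closeness depended on tags: Bmal1KO was nearer in 75.4% of the lowest quintile and in 46.2% of the highest, where the median distances were 0.58 and 0.54. Among shared regions past 2-fold toward Bmal1KO, Bmal1KO was nearer wild type in 1760 of 1879 with a wild-type peak (93.7%). Among those toward Mfp2KO it was nearer in 1606 of 2404 (66.8%). In both directions, wild type was more often nearer Bmal1KO than Mfp2KO where the knockouts differed past 2-fold, whereas 9 of the 12 highest ratios toward Mfp2KO were nearer Mfp2KO. The share of tags in peaks was also nearer between wild type and Bmal1KO (38.71% and 37.35%) than between wild type and Mfp2KO (57.15%), and its part in this was not tested.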

How the data were processed

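H3K27ac ChIP-seq peak lists of Bmal1KO, Mfp2KO and wild-type RAW264.7 cells were used, 1 ChIP and 1 input library a genotype, grouped by the genotype and antibody labels. Build mm39 and the tools HOMER 5.1, MACS3 3.0.3, BWA 0.7.19-r1273, fastp 1.0.1, Picard 3.4.0 and SAMtools 1.23 are named, without roles, in the submitters' processing notes. Peaks came from HOMER findPeaks with each genotype's own input as control, per the file headers: windows of 500 bp, a fold over input of 4 or more, and a p-value limit of 0.0001. The headers give tag minimums of 9 in Bmal1KO and 10 in Mfp2KO, and 826 and 753 putative peaks removed by input. The authors' normalized tag count is a deposited signal per peak, scaled to 10 M tags. Input tags are a deposited signal whose scale, from the values, differs between the lists: as counted in Mfp2KO and wild type, and, in Bmal1KO, matched to its ChIP tag total. They were brought to 10 M here by divisors of 1.28 (Mfp2KO) and 1.25 (Bmal1KO) derived from the deposited fold over input, and every input ratio rests on these. The deposited fold over input is the authors' ratio after depth scaling. The handling of duplicate reads is not stated in the labels or headers used here.

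Peaks on chromosomes 1 to 19 were merged where they overlapped by at least 1 bp. Tags and called length were summed per knockout and region. Signal outside a knockout's own calls counts as none, which the ratio intervals do not cover. Wild-type tags of a region are the sum over every whole wild-type peak that overlaps it, which can reach past the region. Log2 ratios were centred on the median shared region, and regions were counted as past 2-fold with at least 20 tags in both lists together. Ratio intervals are 95% binomial intervals of the tags at library depth and cover counting error only. Shares have 95% Wilson intervals, which take regions as independent draws and do not cover variation between cultures. Regions in a library are not replicates. Named were the 12 regions with most tags of each kind and the 12 highest and lowest ratios of at least 200 tags. Regions with input per kb over 5 times the list median (1 Bmal1KO-only, 2 Mfp2KO-only and 1 of the shared with most tags) and 1 Bmal1KO-only region on chromosome 18 were passed over. The regions, lists and rules were chosen with earlier results of these data known. Gene lists, cell type markers and sequence features had been planned at regions and were not run, because the reference tables used here are of another build than mm39. Merging and counting were checked on simulated data (Python 3.11.15, numpy 2.4.6, pandas 2.3.3, scipy 1.17.1).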

Additional observations from a re-analysis of the deposited data

Results flagged for a closer look

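Peaks outside chromosomes 1 to 19, which no comparison above uses, were called in both knockouts. Bmal1KO had 452 peaks on chromosome X and Mfp2KO 474, under the caller's limit of 4-fold over input that every listed peak meets. Merged as on the other chromosomes, these gave 348 shared regions, 100 in Bmal1KO only and 122 in Mfp2KO only, and in the shared ones a median log2 ratio of 0.24 toward Mfp2KO, relative to the median of chromosomes 1 to 19. Wild type had a peak at 54 of the 100 and at 50 of the 122. On unplaced or unlocalized scaffolds Bmal1KO had 21 peaks and Mfp2KO 14. The strongest scaffold peak held 24863.2 tags in Bmal1KO (12.9-fold over input, 2022 bp) and 26768.4 in Mfp2KO (8.93-fold, 2005 bp), more than any region on chromosomes 1 to 19 named above. At these folds the input there was also far above the list medians of 4.33 and 5.66 tags per kb. The rule that passed over regions of high input was not applied to scaffold peaks.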

How the results depend on the processing

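Under other settings, 50 recomputed values moved by less than their interval or, for counts, by less than 1.5 times, 24 moved further, and no median ratio changed sign. The order of the knockouts in the share with a wild-type peak did turn at 6-fold over input, where most unshared regions of both had one. Unshared regions at that cut include those whose peak in the other knockout was under 6-fold. The median log2 ratio of 0.4709 became 0.4538 when a peak counted as shared only with 50% of its length covered, 0.4507 with peaks of at least 6-fold over input, and 0.5135 per kb called. Regions past 2-fold toward Mfp2KO (2689) numbered 1614 with 50% covered, 1318 at 6-fold, 4328 without centring and 1519 per kb. Those toward Bmal1KO (1996) numbered 999, 1008, 1159 and 840 under the same settings, and 618 with a minimum of 100 tags. Leaving out regions in which 1 list called under 50% of the length of the other, chosen after the data were seen, left 1705 and 1198. The split of these calls toward Mfp2KO was 57.4%, against 78.9% without centring and 77.9% with the minimum of 100 tags.

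The share of Bmal1KO-only regions with a wild-type peak (43.27%) was 40.38% with peaks up to 1 kb apart merged, 49.43% with 50% covered, 56.73% at 6-fold and 45.45% with equal numbers of peaks. For Mfp2KO-only regions (32.48%) it was 29.42%, 42.08% and 60.78% under the first 3 of these. Shared regions longer in Mfp2KO (6599) numbered 3904 at 6-fold, which leaves fewer peaks. Bmal1KO was nearer wild type in 64.26% with 50% covered and 70.26% per kb, against 62.65%. Beyond that the cause was not tested. No paired analysis was possible because each genotype has 1 ChIP library. A missing peak is not absence of the mark: it can lie under the caller's limits, which differ in tag minimum and input between the lists, and at 9 or 10 tags a window the weak regions are set by few reads.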
